A study of Homo sapiens with 6 samples.

Results

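The genes that build and police the mitotic spindle were read in a sorafenib-resistant liver cancer line with and without fostamatinib. They are 55 genes, chosen by symbol: 7 mitotic kinases, 5 cyclins and CDC25 phosphatases, 6 genes of the spindle checkpoint, the anaphase-promoting complex (APC/C) and separase, 3 subunits of the chromosomal passenger complex, 10 kinesins, 6 spindle assembly factors, 11 kinetochore and centromere genes, 4 cytokinesis genes, and FOXM1, MKI67 and TOP2A. All 55 were found among the 16305 genes in the files, and each had at least 67 reads in every sample.

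Huh7-R cells (labelled Huh7SR) are a pool, not a clone, derived from the hepatocellular carcinoma line Huh7 by long exposure to sorafenib, a kinase inhibitor used in advanced disease. By the study's methods, sorafenib is taken out of the medium some days before an experiment, and this holds for both groups. RNA was sequenced from 3 samples treated with fostamatinib, an inhibitor of spleen tyrosine kinase, and 3 samples treated with DMSO, the solvent, for 24 h. The study did not detect spleen tyrosine kinase protein in Huh7 cells and proposes that the drug acts through other targets. The labels give 2 µM for fostamatinib and write the same dose for DMSO. They speak of triplicate treatments but not of separate cultures, so the spread between these samples may be technical. The p-values rest on that spread, pooled for each gene with the spread of all genes.

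Mitosis is driven by CDK1 with its cyclins, by Polo-like kinase and by the Aurora kinases. Kinetochores, built on centromeric chromatin, hold the chromosomes to spindle microtubules, and the spindle checkpoint keeps CDC20 from activating the APC/C until every chromosome is attached. Most of these genes are transcribed late in the cell cycle, many through a short promoter element called the cell cycle genes homology region (CHR), which is bound by the MuvB core. MuvB represses these genes as part of the DREAM complex in resting cells and activates them with B-Myb and FOXM1 in dividing ones. Genes for origin licensing and DNA replication are mostly transcribed earlier, from E2F sites, and serve here as a comparison.

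Promoters of 8 members are shown because they carry the same CHR element although the genes did not respond alike: PLK1, CDC20, CCNB2, CDCA8 and PRC1 rose, KIF11 and MKI67 did not pass the test, and ECT2 fell. Each line gives the 120 bases before the most upstream RefSeq start of the gene, 5′ to 3′ on the gene's strand, from GRCh38.p14. Capitals mark CHR-type letters (TTTGAA or TTCGAA on either strand, so also TTCAAA) and CCAAT boxes (CCAAT, or ATTGG on the other strand). A letter can belong to both motifs where they overlap.
PLK1, chr16:23678769-23678888, plus strand: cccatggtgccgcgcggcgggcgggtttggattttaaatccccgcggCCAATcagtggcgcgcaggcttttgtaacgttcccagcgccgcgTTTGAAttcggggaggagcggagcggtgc
CDC20, chr1:43358861-43358980, plus strand: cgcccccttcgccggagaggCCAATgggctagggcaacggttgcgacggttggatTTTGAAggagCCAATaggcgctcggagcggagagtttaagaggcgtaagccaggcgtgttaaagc
CCNB2, chr15:59105026-59105145, plus strand: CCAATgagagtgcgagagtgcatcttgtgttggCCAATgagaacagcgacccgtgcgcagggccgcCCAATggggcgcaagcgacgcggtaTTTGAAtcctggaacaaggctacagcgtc
CDCA8, chr1:37692396-37692515, plus strand: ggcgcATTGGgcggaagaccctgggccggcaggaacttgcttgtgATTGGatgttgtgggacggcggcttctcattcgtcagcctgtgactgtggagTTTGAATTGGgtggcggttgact
PRC1, chr15:90994536-90994655, minus strand: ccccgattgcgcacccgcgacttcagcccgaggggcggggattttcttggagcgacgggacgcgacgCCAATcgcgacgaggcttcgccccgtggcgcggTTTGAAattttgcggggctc
KIF11, chr10:92593010-92593129, plus strand: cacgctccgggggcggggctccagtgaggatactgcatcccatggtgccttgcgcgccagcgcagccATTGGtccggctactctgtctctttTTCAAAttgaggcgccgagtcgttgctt
MKI67, chr10:128126424-128126543, minus strand: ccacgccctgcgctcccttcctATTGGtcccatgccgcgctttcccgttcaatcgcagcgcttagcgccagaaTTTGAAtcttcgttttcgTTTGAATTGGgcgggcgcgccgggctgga
ECT2, chr3:172750606-172750725, plus strand: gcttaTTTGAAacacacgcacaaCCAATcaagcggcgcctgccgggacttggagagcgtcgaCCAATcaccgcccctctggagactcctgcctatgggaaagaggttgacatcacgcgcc

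The CHR begins 29 bases before the start in PLK1 and CCNB2, 28 in KIF11, 23 in CDCA8, 20 in PRC1 and 65 in CDC20. MKI67 holds it at 47 and again at 29 bases before the start. In ECT2 it lies at 115 bases, farther out than in the other 7. The 8 genes were picked with their values known, and a match is a description of letters, not evidence of binding.

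Of the 55 genes, 27 rose, 13 fell and 15 did not pass the test (limma, Benjamini-Hochberg adjusted p under 0.05 over all genes). The treatment moved many genes: over all 16305 genes tested, 47.8% were called, 23.3% as higher and 24.5% as lower. Among the 9959 genes within the members' range of mean reads, 109 to 8596, 61.1% were called, 28.4% as higher and 32.7% as lower. Among the 13287 genes with at least 10 reads in every sample the shares were 54.0%, 25.8% and 28.2%. The members' 27 higher calls make 49.1% of the list and their 13 lower calls make 23.6%. Their median log2 fold change was 0.10, against 0.0015 over all genes. In bulk RNA, a change in how many cells are in or near mitosis and a change in RNA per cell cannot be told apart.

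The changes were small. They ran from a fall of CENPM (log2 fold change -0.73) to a rise of CENPE (0.81), none reached 2-fold, and 17 of the 40 called members changed by less than 1.2-fold. Of the 15 members that were not called, 12 had a 95% interval inside 1.2-fold. All 3 fostamatinib samples were above all 3 DMSO samples for 26 members and below them for 13, and the groups overlapped for 16. Over all genes 54.1% did not overlap, 26.8% with fostamatinib higher and 27.4% with it lower.

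**Figure D1:**
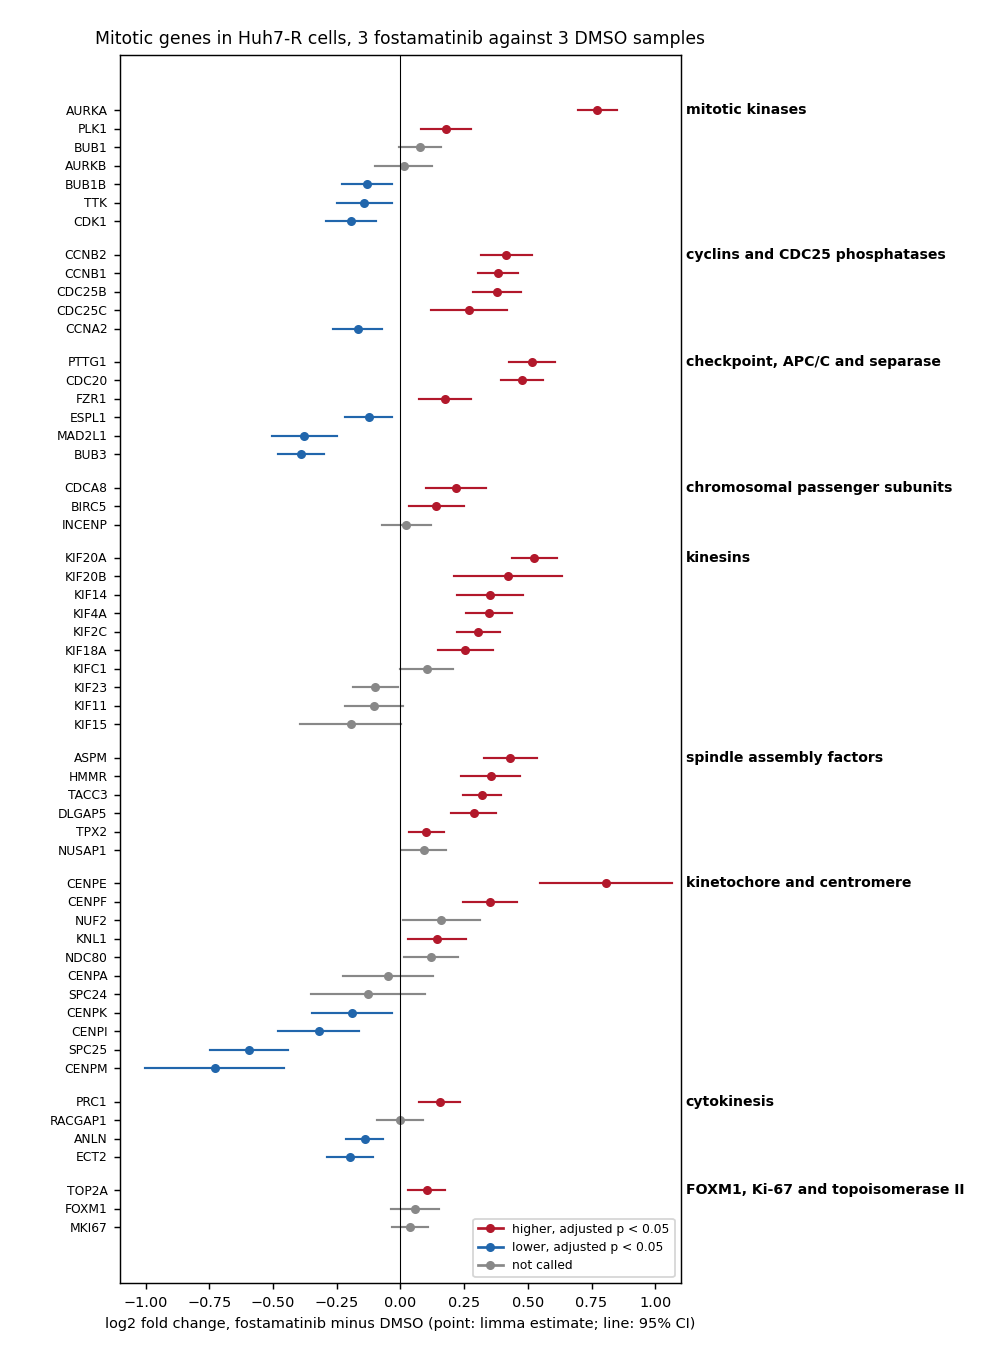
Log2 fold change (fostamatinib minus DMSO, 3 samples each) of the 55 members with its 95% interval, grouped by role and coloured by the limma call. Kinesins and spindle assembly factors lie at or right of 0 where they were called, while kinases, checkpoint genes and kinetochore genes lie on both sides, from -0.73 for CENPM to 0.81 for CENPE.

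Each sample held between 13303451 and 15272737 reads in listed genes. Levels are given as log2 CPM (reads of a gene scaled to a common library size, on a log2 scale), and a difference of 1 is a doubling. Within a group samples correlated at 0.988 or more over genes, and between groups at 0.972 or less. Hepatocyte genes were present, with ALB at 9.32 and AFP at 10.90 log2 CPM in DMSO samples, and 10 of the 11 hepatocyte markers rose. Of the leukocyte, endothelial and fibroblast markers looked for, CD14, PECAM1, COL1A1 and COL3A1 were among the genes tested, at mean levels of 3.21 log2 CPM or less in either group. PECAM1, an endothelial adhesion molecule, rose from 2.62, 2.68 and 2.80 to 3.13, 3.31 and 3.18 log2 CPM (log2 fold change 0.51, adjusted p = 0.000837, limma), and the other 3 were not called, while PTPRC, CD3E, VWF, DCN and ACTA2 were not among them. The part of either marker list in the results was not tested.

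The 7 kinases did not move together: 2 rose, 3 fell and 2 were not called, and their median change was 0.01. Their shares, 28.6% higher and 42.9% lower, stand beside 28.4% and 32.7% of all genes within the members' range of mean reads. AURKA, the centrosomal and spindle-pole Aurora kinase (chr20:54944445-54967393, minus strand, hg19), was at 7.74, 7.82 and 7.81 log2 CPM in the DMSO samples and at 8.54, 8.60 and 8.56 in the fostamatinib samples. It was high in every fostamatinib sample, with a gap between the groups many times the spread within them, and the log2 fold change was 0.77 (SE 0.0380, adjusted p = 1.4e-18, limma), or 1.71-fold. AURKB, the Aurora kinase of the chromosomal passenger complex, was at 5.89, 5.88 and 5.85 with DMSO and at 5.89, 5.94 and 5.83 with fostamatinib. Its groups overlapped and the change was 0.01 (95% interval -0.10 to 0.12, adjusted p = 0.871, limma).

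PLK1, the Polo-like kinase of mitotic entry, centrosome maturation and kinetochore attachment, was at 6.85, 6.90 and 6.78 log2 CPM with DMSO and at 7.11, 6.94 and 7.02 with fostamatinib. The groups did not overlap, and the log2 fold change was 0.18 (SE 0.0482, adjusted p = 0.00244, limma). CDK1, the kinase that drives mitotic entry, went the other way, from 7.00, 6.97 and 7.12 to 6.89, 6.86 and 6.77. Every fostamatinib sample was below every DMSO sample, with a change of -0.19 (SE 0.0478, adjusted p = 0.000979, limma). Both calls were lost when the variance prior took no mean-variance trend (adjusted p = 0.0817 for PLK1 and 0.0600 for CDK1).

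The checkpoint kinases were close to their DMSO levels. TTK, also called MPS1, which starts checkpoint signalling at unattached kinetochores, was at 6.22, 6.08 and 6.18 log2 CPM with DMSO and at 6.02, 6.03 and 5.995 with fostamatinib. The groups did not overlap, and the change was -0.14 (SE 0.0529, adjusted p = 0.0255, limma). Without DMSO replicate 1 it was -0.11 (adjusted p = 0.140), and the call was also lost without fostamatinib replicate 1 (0.0557) or replicate 3 (0.0844). BUB1, which recruits the checkpoint proteins, was at 7.30, 7.34 and 7.33 with DMSO and at 7.40, 7.41 and 7.38 with fostamatinib. Its groups did not overlap, but the change of 0.08 did not pass the test (SE 0.0410, adjusted p = 0.128, limma). BUB1B, which encodes the checkpoint pseudokinase BUBR1, fell by 0.13 on the log2 scale (adjusted p = 0.0231, limma), and that call was lost without DMSO replicate 1 or 3 and without fostamatinib replicate 1 or 3, with adjusted p-values from 0.0689 to 0.101.

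The B-type cyclins rose, whereas CDK1 and CCNA2 fell. CCNB1, the main mitotic cyclin, was at 7.82, 7.83 and 7.79 log2 CPM with DMSO and at 8.22, 8.24 and 8.13 with fostamatinib. It was higher in every fostamatinib sample, by 0.38 (SE 0.0394, adjusted p = 3.6e-10, limma), or 1.30-fold. CCNB2, the second B-type cyclin, had the largest rise of the cyclin and CDC25 group, from 6.25, 6.18 and 6.17 to 6.66, 6.60 and 6.59. Its change was 0.42 (SE 0.0491, adjusted p = 7.68e-09, limma), again with no overlap.

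CCNA2, the S and G2 phase cyclin, was lower in each treated sample, at 6.74, 6.73 and 6.85 log2 CPM with DMSO and at 6.62, 6.63 and 6.57 with fostamatinib. The log2 fold change was -0.17 (SE 0.0475, adjusted p = 0.00354, limma), with the call lost when no trend was used (adjusted p = 0.0527). The phosphatases that remove the inhibitory phosphates of CDK1 rose, CDC25B by 0.38 and CDC25C by 0.27 (adjusted p = 1.41e-08 and 0.00241, limma). So 4 of these 5 genes rose and CCNA2 alone fell.

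The checkpoint, APC/C and separase group divided evenly, with 3 genes higher and 3 lower. CDC20, the mitotic activator of the APC/C and the target of the checkpoint, was at 7.85, 7.88 and 7.77 log2 CPM with DMSO and at 8.37, 8.32 and 8.25 with fostamatinib. All treated samples were higher, with a change of 0.48 (SE 0.0407, adjusted p = 3.63e-12, limma), or 1.39-fold. PTTG1, which encodes securin, the inhibitor of separase, was at 7.36, 7.38 and 7.30 with DMSO and at 7.93, 7.91 and 7.76 with fostamatinib, a rise of 0.52 (SE 0.0443, adjusted p = 4.81e-12, limma). FZR1, the APC/C activator of late mitosis and G1, rose by 0.17 (adjusted p = 0.00424, limma). Processed copies of these genes share sequence with them: CDC20P1 had 48 to 79 reads and PTTG3P 2 to 8 per sample, against at least 2267 for PTTG1 and 3190 for CDC20.

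BUB3 and MAD2L1, whose products are part of the checkpoint complex together with CDC20, were lower. BUB3 was at 7.17, 7.14 and 7.09 log2 CPM with DMSO and at 6.75, 6.77 and 6.71 with fostamatinib. Its groups lay well apart, with a change of -0.39 (SE 0.0446, adjusted p = 3.92e-09, limma), or 0.763-fold. MAD2L1, which encodes the MAD2 subunit, fell by 0.38 on the log2 scale (adjusted p = 4.64e-06, limma), with no overlap between 5.99 to 6.29 in DMSO samples and 5.69 to 5.85 in treated samples. ESPL1, separase itself, fell by 0.13 (adjusted p = 0.0240, limma), and its call was lost without DMSO replicate 2 (adjusted p = 0.0990) and without fostamatinib replicate 1 (0.0558) or 3 (0.0806).

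**Figure D2:**
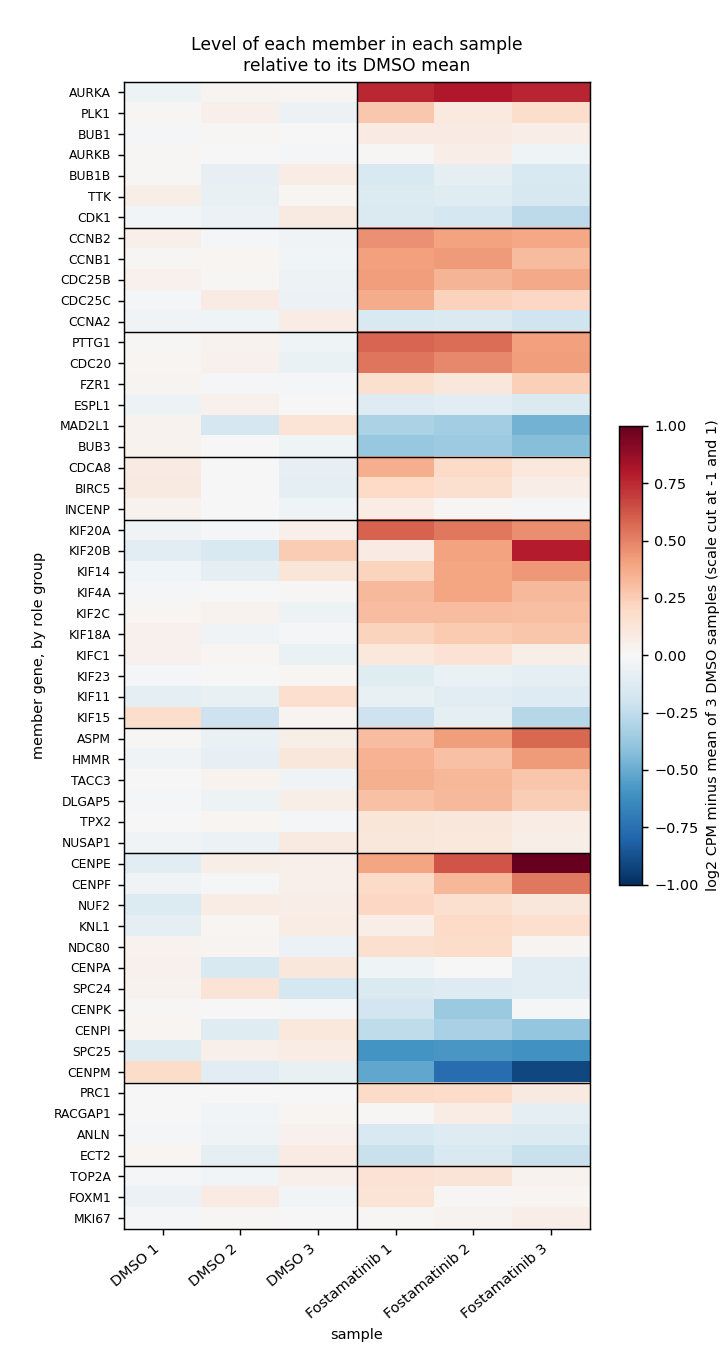
Level of each of the 55 members in each of the 6 samples, as log2 CPM minus the gene's mean over the 3 DMSO samples, ordered by role and then by fold change (the colour scale stops at -1 and 1). AURKA, PTTG1, CDC20 and KIF20A are high in all 3 fostamatinib samples and SPC25 and BUB3 low in all 3, while CENPE and KIF20B are highest in fostamatinib replicate 3.

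The passenger complex carries Aurora B to centromeres and to the midzone. CDCA8, its subunit borealin, was at 6.25, 6.17 and 6.08 log2 CPM with DMSO and at 6.53, 6.35 and 6.27 with fostamatinib, a rise of 0.22 (SE 0.0580, adjusted p = 0.00198, limma). The groups met closely, at 6.25 and 6.27, and without fostamatinib replicate 1 the change was 0.15 (adjusted p = 0.0525). BIRC5, which encodes survivin, rose by 0.14 (adjusted p = 0.0281, limma) with overlapping groups, and lost its call without DMSO replicate 3 (0.140) and without fostamatinib replicate 1 (0.135) or 2 (0.0951). INCENP, the scaffold, had a log2 fold change of 0.02 (95% interval -0.07 to 0.12).

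Of the 10 kinesins in this group, 6 rose (60.0%), none fell and 4 were not called by limma, with a median change of 0.28. Among all genes within the members' range of mean reads, 28.4% were higher and 32.7% lower. Outside the members, the kinesin KIF2A fell (log2 fold change -0.30, adjusted p = 5.15e-06, limma), and KIF18B and KIF22 were not called. Among those that rose, KIF20B lost its call without fostamatinib replicate 3 (adjusted p = 0.0566, limma) and with no variance trend (0.172). At an unadjusted p under 0.05, KIF23 alone of the 10 was lower, and limma-voom called none of them lower. KIF20A, a midzone kinesin needed for cytokinesis (chr5:137514408-137523412, plus strand, hg19), was at 7.01, 7.02 and 7.09 log2 CPM with DMSO and at 7.63, 7.56 and 7.50 with fostamatinib. The treated samples were all higher, by 0.53 (SE 0.0437, adjusted p = 1.99e-12, limma), or 1.44-fold. KIF4A, a chromokinesin that also works at the midzone, rose by 0.35 with adjusted p = 2.87e-08 (limma). KIF14, another cytokinesis motor, rose by 0.35 as well (adjusted p = 1.87e-05). The microtubule depolymerase KIF2C, also called MCAK, rose by 0.31 and the chromosome-alignment motor KIF18A by 0.25 (adjusted p = 1.26e-07 and 0.000128, limma). KIF4B, a copy of KIF4A, had 12 to 19 reads per sample.

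KIF11, KIF15, KIF23 and KIFC1 were not called. KIF11, the tetrameric Eg5 kinesin of bipolar spindles, was at 6.47, 6.48 and 6.73 log2 CPM with DMSO and at 6.49, 6.45 and 6.43 with fostamatinib. The groups overlapped, and the change was -0.10 (95% interval -0.22 to 0.01, adjusted p = 0.122, limma). Without DMSO replicate 3, which was high for KIF11, it was -0.02. KIF15, which backs up KIF11, had a log2 fold change of -0.19 (adjusted p = 0.0992, limma) and was called lower without DMSO replicate 2 (change -0.30, adjusted p = 0.0165). For KIF23, the motor subunit of centralspindlin, it was -0.10 (adjusted p = 0.0588), and for KIFC1, a minus-end motor that focuses poles, 0.10 (adjusted p = 0.0977).

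The spindle assembly factors had 5 of 6 genes higher (83.3%) and none lower, with a median change of 0.30. Among all genes within the members' range of mean reads, 28.4% were higher and 32.7% lower. None was lower at an unadjusted p under 0.05 or by limma-voom. ASPM, a spindle-pole protein, was at 6.83, 6.75 and 6.88 log2 CPM with DMSO and at 7.13, 7.23 and 7.39 with fostamatinib, with no overlap and a change of 0.43 (SE 0.0517, adjusted p = 1.07e-08, limma). HMMR, a microtubule-binding protein of the poles, rose by 0.35 (adjusted p = 3.58e-06). TACC3, which stabilizes kinetochore fibres with clathrin after Aurora A phosphorylates it, rose by 0.32 (adjusted p = 3.6e-09). DLGAP5, also called HURP and another kinetochore-fibre protein, rose by 0.29 (adjusted p = 8.67e-07). TPX2, the activator of Aurora A on microtubules, rose by 0.10 (adjusted p = 0.0137), and this was lost without fostamatinib replicate 1 (0.0528) or 2 (0.0635). The log2 fold change of NUSAP1, a microtubule bundling protein, was 0.09 (adjusted p = 0.0766, limma), and it was called higher without DMSO replicate 3 (change 0.14, adjusted p = 0.00409).

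The widest spread was at the kinetochore, where 3 of 11 genes rose, 4 fell and 4 were not called around a median of -0.05. That is 27.3% higher and 36.4% lower, near the 28.4% and 32.7% of all genes within the members' range of mean reads. The ends of the spread, CENPE and CENPM, had the largest SE of all members (0.127 and 0.134). CENPE, the kinetochore kinesin that carries chromosomes to the spindle equator (chr4:104026506-104119602, minus strand, hg19), was at 4.21, 4.37 and 4.36 log2 CPM with DMSO and at 4.71, 4.94 and 5.71 with fostamatinib. All treated samples were higher, by 0.81 (SE 0.127, adjusted p = 1.91e-06, limma), but replicate 3 stood apart. Without fostamatinib replicate 3 the change was 0.51 (adjusted p = 4.38e-05), and with no variance trend the full change lost its call (adjusted p = 0.0652). CENPF, a corona protein that links kinetochores to dynein factors, rose by 0.35 (adjusted p = 6.49e-07), and KNL1, the scaffold that docks BUB proteins, by 0.14 (adjusted p = 0.0314). The KNL1 groups overlapped, and its call was lost without DMSO replicate 1 (adjusted p = 0.228) and without fostamatinib replicate 2 (0.146) or 3 (0.107).

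CENPM, a subunit of the constitutive centromere network that sits on CENPA chromatin (chr22:42334741-42343156, minus strand, hg19), had the fewest reads of all members. It was at 3.44, 3.15 and 3.18 log2 CPM with DMSO and at 2.73, 2.50 and 2.35 with fostamatinib. All treated samples were lower, with a change of -0.73 (SE 0.134, adjusted p = 2.31e-05, limma), or 0.603-fold. CENPI and CENPK, of the same network, fell by 0.32 (adjusted p = 0.000922) and 0.19 (adjusted p = 0.0396). The CENPK groups overlapped and its call was lost without DMSO replicate 1 or 2 and without fostamatinib replicate 1 or 2, with adjusted p-values from 0.0764 to 0.332; without fostamatinib replicate 2 the change was -0.10. CENPA, the centromeric histone, had a log2 fold change of -0.05 (95% interval -0.23 to 0.13).

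Of the 4 subunits of the NDC80 complex, the main microtubule coupler, SPC25 passed the test. NDC80 was at 6.26, 6.25 and 6.16 log2 CPM with DMSO and at 6.38, 6.40 and 6.25 with fostamatinib, with overlapping groups and a change of 0.12 (SE 0.0527, adjusted p = 0.0572, limma). It was called higher without fostamatinib replicate 3 (change 0.17, adjusted p = 0.0197). SPC25 (chr2:169690642-169769881, minus strand, hg19) was at 4.81, 4.98 and 5.003 with DMSO and at 4.33, 4.34 and 4.32 with fostamatinib. Its groups lay apart, and it fell by 0.60 on the log2 scale (SE 0.0757, adjusted p = 3.58e-08, limma). The log2 fold change of NUF2 was 0.16 (adjusted p = 0.0759, called higher without DMSO replicate 3 at 0.0387) and that of SPC24 -0.13 (adjusted p = 0.358).

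Cytokinesis genes moved little, with 1 of 4 higher, 2 lower and a median change of -0.07. PRC1, the microtubule crosslinker of the central spindle, was at 7.92, 7.92 and 7.93 log2 CPM with DMSO and at 8.11, 8.10 and 8.01 with fostamatinib, a rise of 0.15 (SE 0.0390, adjusted p = 0.00125, limma). ECT2, the RhoA exchange factor that triggers furrowing, was at 7.68, 7.56 and 7.74 with DMSO and at 7.44, 7.50 and 7.44 with fostamatinib. Its groups did not overlap, and it fell by 0.20 (SE 0.0443, adjusted p = 0.000314, limma). ANLN, which encodes the ring scaffold anillin, fell by 0.14 (adjusted p = 0.00148). RACGAP1, the partner of KIF23 in centralspindlin, had a log2 fold change of -0.0025 (95% interval -0.09 to 0.09). The calls of PRC1, ECT2 and ANLN were lost when no variance trend was used (adjusted p = 0.0512, 0.0567 and 0.0511).

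The proliferation readouts MKI67, FOXM1 and TOP2A were close to their DMSO levels. Other common readouts were not: PCNA and MCM2, of the origin licensing and replication list, had log2 fold changes of -1.18 and -1.17 (adjusted p = 1.68e-20 and 1.85e-19, limma). MKI67, which encodes Ki-67, was at 8.81, 8.84 and 8.83 log2 CPM with DMSO and at 8.84, 8.86 and 8.89 with fostamatinib, a change of 0.04 (95% interval -0.03 to 0.11, adjusted p = 0.373, limma). FOXM1, the transcription factor that activates late cell cycle genes, was at 7.13, 7.27 and 7.17 with DMSO and at 7.33, 7.20 and 7.21 with fostamatinib. The groups overlapped and the change was 0.06 (95% interval -0.04 to 0.15, adjusted p = 0.332, limma). TOP2A, the topoisomerase that untangles sister chromatids, was at 9.17, 9.16 and 9.24 with DMSO and at 9.33, 9.32 and 9.23 with fostamatinib, with a change of 0.10 (SE 0.0358, adjusted p = 0.0174, limma). Its groups overlapped and its call was lost without DMSO replicate 1 or 2 and without fostamatinib replicate 1 or 2, with adjusted p-values from 0.0647 to 0.102. A stretch equal to 15.9% of the FOXM1 exon bases overlaps ITFG2 on the other strand, and 34.3% of the PRC1 exon bases overlap PRC1-AS1. The library kit keeps strand, but whether the counting used it is not given in the sources used here.

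To set partners in a complex or pathway side by side, 16 pairs were also compared as log2 ratios within each sample. The pairs were picked after the values were seen, so the ratios are a description without a test, and only their change between groups is given, since gene lengths differ. The CCNB1 to CDK1 ratio was higher by 0.58 and the CCNB2 to CDK1 ratio by 0.61, whereas the CCNA2 to CDK1 ratio differed by 0.03, with overlapping groups. CDC20 was higher relative to BUB3 by 0.87, to MAD2L1 by 0.86 and to BUB1B by 0.61. The securin to separase ratio (PTTG1 to ESPL1) was higher by 0.64, AURKA relative to TPX2 by 0.67, and NDC80 and NUF2 relative to SPC25 by 0.72 and 0.76. SPC24 relative to SPC25 was higher by 0.47, KIF4A relative to PRC1 by 0.19, and in the passenger complex CDCA8 and BIRC5 relative to AURKB by 0.21 and 0.13. The groups overlapped for 2 further pairs, INCENP to AURKB, which differed by 0.01, and KIF23 to RACGAP1, which differed by -0.10.

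**Figure D3:**
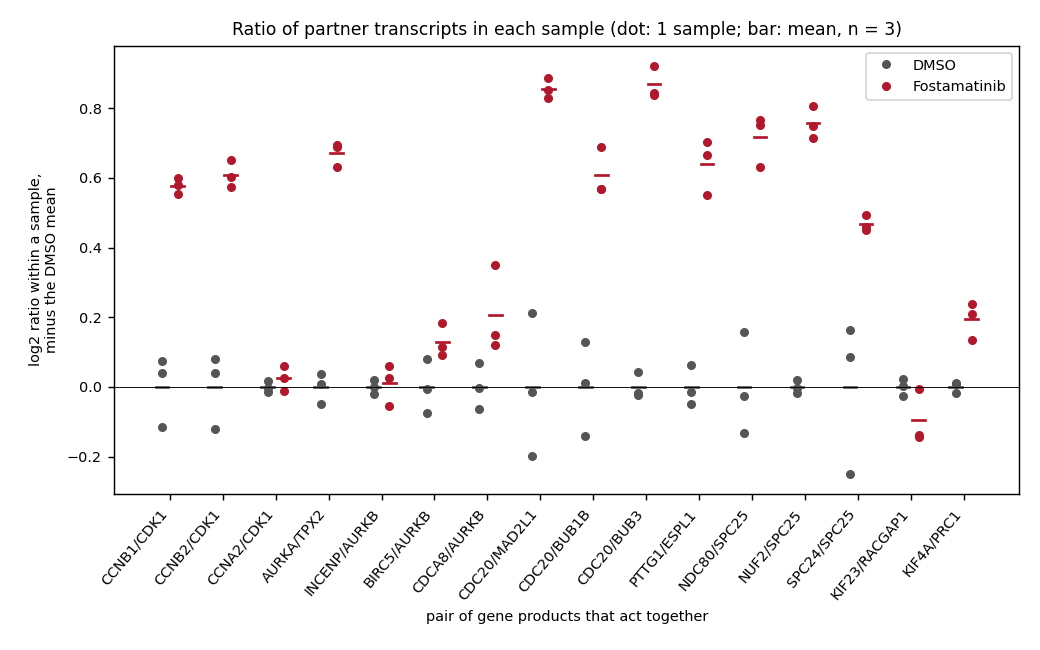
Log2 ratio of partner transcripts in each sample, shown as the difference from the mean DMSO ratio of that pair (points are samples, bars are means of 3). Fostamatinib samples lie 0.86 and 0.87 above the DMSO mean for CDC20 over MAD2L1 and BUB3, and overlap the DMSO samples for CCNA2 over CDK1, INCENP over AURKB and KIF23 over RACGAP1.

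Levels can be compared between genes only per length, here as CPM per kb of exon. In DMSO samples TPX2 was highest at 135 CPM per kb, before CDC20 at 114, CCNB1 at 92.5, TOP2A at 91.7, PTTG1 at 82.5 and AURKA at 75.7. The lowest were CENPI at 3.72, KIF15 at 3.27 and CENPE at 2.01. With fostamatinib CDC20 was first at 158 CPM per kb, TPX2 followed at 145, AURKA came next at 129, and CENPE stood at 3.67. These are group means, and exon lengths come from an annotation that does not say which isoform these cells use.

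Gene length moved with the values of single samples. Across the 55 members, each gene's deviation from its group mean ranked with exon length at a Spearman rho of -0.45, -0.13 and 0.49 in fostamatinib replicates 1, 2 and 3, and of -0.29, -0.18 and 0.35 in the DMSO samples of the same numbers. Across 13173 genes it was -0.17, 0.016 and 0.15 with fostamatinib and -0.045, -0.11 and 0.13 with DMSO. These are descriptions over genes that share a library, and the part of length in the results was not tested. Among the treated samples, replicate 3 was highest for MKI67, CENPF, ASPM, CENPE, KIF14, KIF20B, FZR1, KIF18A, CENPK, HMMR and SPC24, named from longest to shortest. The other members, among them the long KNL1, ESPL1, TACC3, BUB3 and CENPI, were highest in replicate 1 or 2. KIF20B, a late-mitosis kinesin, rose by 0.42 (adjusted p = 0.00102, limma) with overlapping groups. Without fostamatinib replicate 3 its change was 0.24 (adjusted p = 0.0566). The log2 fold change itself ranked with length at -0.026 over the members and 0.0037 over all these genes.

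Other mitotic genes, taken from lists of the same machinery, had more falls than rises. Of 90 tested, 14 rose (15.6%), 44 fell (48.9%) and 32 were not called, with a median change of -0.13. Over all genes 23.3% were higher and 24.5% lower. Of 26 other kinetochore and centromere genes, 16 fell (61.5%) and PMF1 alone rose (3.85%), with a median of -0.25. SKA1, a microtubule coupler at the kinetochore, fell by 0.74 (adjusted p = 2.27e-09, limma) and CENPH, of the centromere network, by 0.57 (adjusted p = 1.27e-05). PMF1, a MIS12 complex subunit, rose by 0.38 (adjusted p = 0.00777), a call lost in 2 of the 6 fits that left out a sample (change 0.24 and adjusted p = 0.0845 without DMSO replicate 3, and also without fostamatinib replicate 1). The falls of CENPL and CENPW lost their calls in 2 of those 6 fits and that of HJURP in 1.

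The 21 other checkpoint, APC/C and cohesin-protector genes had 4 rises (19.0%) and 5 falls (23.8%), near the 23.3% and 24.5% over all genes. The fall of ANAPC7 lost its call in 4 of the 6 fits that left out a sample. APC/C subunits ANAPC4 and ANAPC2 rose by 0.59 and 0.36 (adjusted p = 2.49e-09 and 2.87e-05, limma), while FBXO5, which encodes the APC/C inhibitor EMI1, and CDCA5, the cohesion protector sororin, fell by 0.76 and 0.69 (adjusted p = 4.94e-12 and 2.09e-12). All 10 other entry and kinase genes were called, 4 higher and 6 lower, though CKS2 and HASPIN lost the call in 4 and 5 of the 6 fits that left out a sample. NEK2, a centrosome kinase, and BORA, the Aurora A cofactor that activates PLK1, rose by 0.37 and 0.36 (adjusted p = 8.23e-07 and 0.000149). CDC25A, a phosphatase that also acts in S phase, and PKMYT1, an inhibitory kinase of CDK1, fell by 0.87 and 0.78 (adjusted p = 1.54e-12 and 5.24e-08). CDC25A thus fell where CDC25B and CDC25C rose.

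Of 19 other spindle and kinesin genes 5 rose (26.3%) and 7 fell (36.8%), beside 23.3% and 24.5% over all genes. HAUS1, lower, and PSRC1, higher, lost the call in 5 and 3 of the 6 fits that left out a sample. The microtubule-binding proteins GTSE1 and CKAP2 rose by 0.42 and 0.39 (adjusted p = 3.41e-08 and 5.83e-10, limma), and HAUS6 and HAUS2, of the augmin complex that branches spindle microtubules, fell by 0.72 and 0.58 (adjusted p = 1.29e-10 and 1.94e-10). Condensin, which compacts mitotic chromosomes, had 7 of 8 subunits lower (87.5%) and none higher (1 at an unadjusted p under 0.05, and none by limma-voom). The calls of SMC2 and SMC4 were lost without fostamatinib replicate 1, that of SMC4 also without DMSO replicate 3, and that of NCAPH without fostamatinib replicate 3. The largest falls were those of the condensin II subunits NCAPD3 and NCAPG2 at -0.44 and -0.38 (adjusted p = 5.1e-07 and 1.38e-07). In the MuvB and B-Myb list 3 of 6 genes fell, MYBL2, which encodes B-Myb, by 0.86 (adjusted p = 2.26e-17) and LIN9 by 0.45 (adjusted p = 0.000118).

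The origin licensing and replication list had 19 of 22 genes lower and none higher by limma, limma-voom or at an unadjusted p under 0.05. Its 86.4% lower by limma stands beside 24.5% over all genes. In 9 genes of the list the change was over 2-fold, and the median was -0.86, against 0.10 and no change over 2-fold in the members. GINS2 of the replicative helicase fell by 1.79 on the log2 scale, from 4.35 to 2.56 log2 CPM (adjusted p = 1.16e-15, limma), and MCM5, of the helicase ring, fell by 1.55 (adjusted p = 2.32e-19). The members' largest falls, CENPM at -0.73 and SPC25 at -0.60, were smaller than the median of that list.

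**Figure D4:**
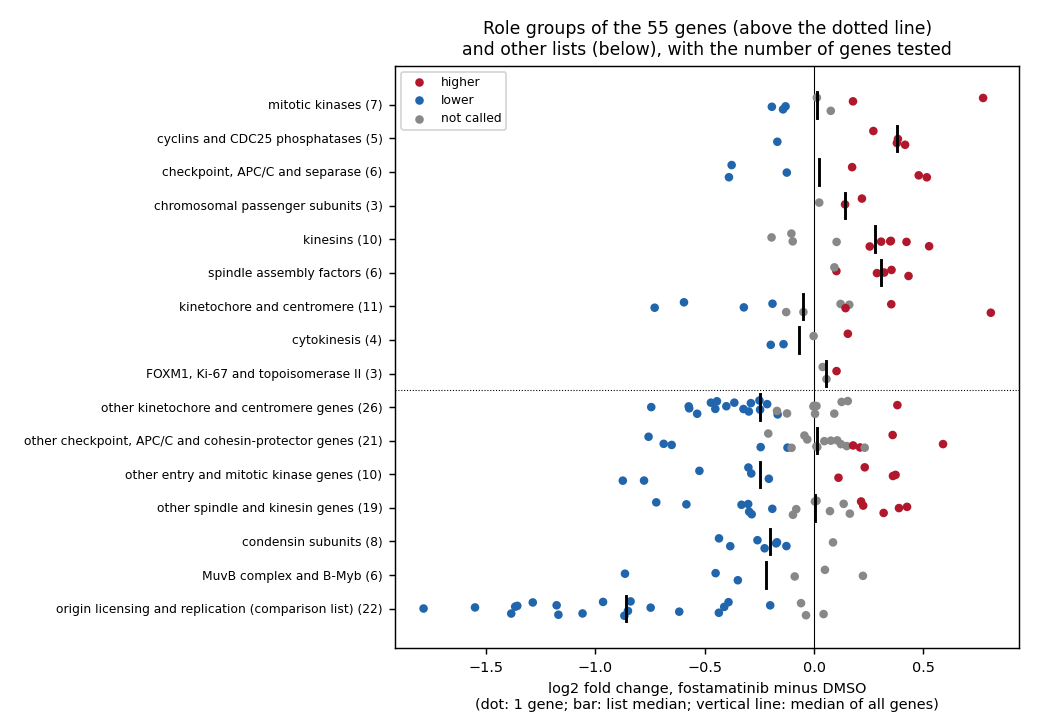
Log2 fold change (fostamatinib minus DMSO) of every tested gene in the 9 role groups of the members and in 7 other lists, 1 dot a gene, with the list median as a bar and colour for the limma call. Cyclins, kinesins and spindle factors have medians of 0.38, 0.28 and 0.30, other kinetochore genes -0.25, and origin licensing genes -0.86.

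The RefSeq promoter set used here held 46 of the 55 members. It had no entry for AURKA, BIRC5, BUB3, CENPM, FOXM1, KNL1, RACGAP1, TPX2 and TTK, which were not searched. Within 250 bases before and 50 after the start, on both strands, a CHR was present in 35 of 46 members (76.1%). It was present in 41 of 79 other mitotic genes (51.9%) and in 1 of 19 origin licensing genes (5.26%). The share was 15.98% of the 10466 tested genes in the promoter set and 19.5% of all its 27305 genes. A CCAAT box was present, in the same order, in 78.3%, 54.4%, 73.7%, 43.1% and 39.7%. E2F-type letters (TTCGCGC or TTGGCGC, the latter able to overlap a CCAAT box on the other strand) were found in 15.2%, 21.5%, 42.1%, 10.2% and 6.10%.

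Among the members, the share with a CHR is given by response without a test. It was found in 17 of 23 members that rose (73.9%), 7 of 10 that fell and 11 of 13 that were not called (84.6%). Members with the element had a median change of 0.12 and ranged from -0.60 to 0.48. The 11 without these letters in the window had a median of 0.31 and included CCNB1, KIF20A, PTTG1 and CENPE, which rose, and CCNA2, CENPI and CENPK, which fell. In the printed promoters PLK1 and CCNB2 hold TTTGAA at the same distance from the start, and rose by 0.18 and 0.42.

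**Figure D5:**
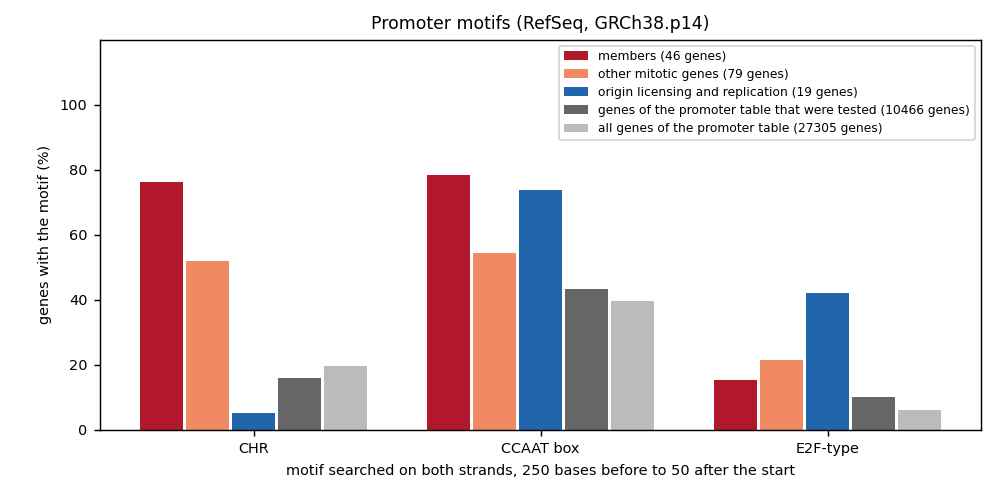
Share of genes with a CHR, a CCAAT box or E2F-type letters within 250 bases before to 50 after a RefSeq start. Groups are 46 members, 79 other mitotic genes, 19 origin licensing genes, 10466 tested genes in the promoter set and all its 27305 genes. The CHR share is 76.1% in members, 5.26% in origin licensing genes and 15.98% in tested genes, and the E2F-type share is 15.2%, 42.1% and 10.2%.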

How the data were processed

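Total RNA of 6 Huh7SR samples was sequenced from poly(A) libraries. Per the study's methods, the authors aligned reads by HISAT (hg19), took gene counts by featureCounts over GENCODE version 22, removed genes with under 5 reads in at least 2 of 3 samples of each group, and normalized by TMM. Tool versions are not given in the sources used here. The deposited values are log2 CPM with a pseudocount of 0.5 reads, 1 sample per file. All values gave whole reads within 0.05, and TMM factors were 0.994 to 1.01.

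Groups and replicate numbers were taken from the labels. A linear model with treatment as the single term was fitted to the log2 CPM of all 16305 genes with limma 3.58.1 in R 4.3.3 (lmFit, eBayes with a trend, Benjamini-Hochberg adjustment, threshold 0.05), and tested on simulated data. An exact permutation test of 3 against 3 samples cannot go below p = 0.10. Members and gene lists were chosen with earlier results of these data known, and lists are described by counts and medians without a test. Named in full were 13 main regulators and, in each role group, the called members with the largest rise and fall; in the other lists, up to 2 of each. A marker gene is not reported here.

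Gene positions and exon lengths are from GRCh37 (hg19) with GENCODE version 44 mapped to it, and promoters from RefSeq on GRCh38.p14. Python 3.11.15 with pandas 2.3.3, numpy 2.4.6 and scipy 1.17.1 gave the tables, and matplotlib 3.10.9 the figures. The alternatives were limma-voom on recovered reads, no variance trend, RLE size factors, library size alone, a pseudocount of 2, a replicate block, a minimum of 10 reads per sample, and leaving out each sample.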

Additional observations from a re-analysis of the deposited data

How the results depend on the processing

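In 13 alternatives, 23 of the 40 called members kept their call in each, 18 higher and 5 lower, and none of the 40 changed direction. Leaving out each of the 6 samples gave 23 to 28 members higher and 9 to 12 lower, 12 to 16 other mitotic genes higher and 37 to 42 lower, and, over all genes, 3306 to 3676 higher and 3634 to 3804 lower. Without the variance trend 18 members were higher and 5 lower, against 27 and 13; 17 calls were lost there. Limma-voom and a pseudocount of 2 changed no call of a member. Library size alone added a call of KIF23, and at least 10 reads in every sample added KIF23 and NDC80.

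Direction turned in 4 uncalled members: with a sample left out AURKB ran from -0.015 to 0.041, INCENP from -0.0024 to 0.044, CENPA from -0.127 to 0.0064 and RACGAP1 from -0.040 to 0.043, and RACGAP1 was 0.0012 with RLE size factors. The medians of the kinase and kinetochore groups changed sign with them, to -0.015 without fostamatinib replicate 2 and 0.0064 without DMSO replicate 3. The cause was not tested.

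Deviations of samples with the same replicate number were hardly correlated over 13287 genes (0.028, -0.019 and 0.013). Among members, however, the deviations ranked with exon length with the same sign within each number. Whether samples of the same number shared a culture or batch was not tested. With the replicate block 28 members were higher and 13 lower, NDC80 being added, with 17 and 43 other mitotic genes and 3879 and 4098 of all genes. A run with no filter was not made, since the files are already filtered. Errors among members ran from SE 0.0343 to 0.134 (CENPM, with the fewest reads), and CENPE was next at 0.127 with its spread between treated samples.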
